A study of Homo sapiens with 14 samples.

Results

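The genes described here are the nuclear genes whose symbols name proteins of the mitochondrial ribosome, MRPL followed by a number for the large subunit and MRPS followed by a number for the small subunit, with an optional closing A, B or C. Choosing rows of the 2 gene tables by this pattern of the symbol, with no measured value, gave 78 members of 58051 genes, 49 with an MRPL and 29 with an MRPS symbol, and all 78 passed the filter on low values in every comparison. RNA was sequenced from the human multiple myeloma (plasma cell cancer) lines MM1.S and H929 after lentiviral transduction with a short hairpin RNA (shRNA) against ZBP1, a sensor of Z-form nucleic acids best known for its part in innate immunity and necroptosis, or with a scramble hairpin. In MM1.S the groups were shRNA1, shRNA2 and 1 scramble control shared by both hairpins. In H929 they were shRNA1 with a scramble control of its own and shRNA2 with another, so that all 7 groups carried a lentiviral hairpin and none was untransduced. Each group held 2 libraries, 14 in all, and the labels do not state whether the 2 are separate cultures; the p-values therefore rest on differences between libraries that may be technical repeats.

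Mitochondria translate the few proteins encoded by their own genome, all of them parts of the respiratory chain and the ATP synthase, on a ribosome of their own. Its RNAs come from the mitochondrial genome, and its proteins are made in the cytosol from nuclear genes and imported. Some of these proteins have homologues in bacterial ribosomes and others were added in mitochondria, and assembly needs the members of both subunits together with a set of GTPases, helicases and RNA-modifying enzymes. In plasma cells and myeloma, which secrete large amounts of protein, respiration draws on the enzymes this ribosome makes.

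The promoters of the members share sequence features, and 7 stretches are printed here because they show the motifs that were most frequent and genes that differed in response. RefSeq promoters (GRCh38.p14), 250 bases before to 50 bases after the start of each gene, were listed for 69 of the 78 members. Capitals mark the letters CCGGAAG, the core of sites bound by ETS family factors such as GABP, and AAGATGGC, the core of sites bound by YY1, which the longer form of the site continues with GGC, each on either strand. The first 4 promoters are given whole, the first and second because they hold both motifs, the third because it holds 3 ETS cores, and the fourth because it holds neither although its gene was among those that fell most. The last 3 run from 50 bases before to 50 bases after the start and belong to the 3 paralogues of ribosomal protein S18.
MRPS12, chr19:38930694-38930993, plus strand: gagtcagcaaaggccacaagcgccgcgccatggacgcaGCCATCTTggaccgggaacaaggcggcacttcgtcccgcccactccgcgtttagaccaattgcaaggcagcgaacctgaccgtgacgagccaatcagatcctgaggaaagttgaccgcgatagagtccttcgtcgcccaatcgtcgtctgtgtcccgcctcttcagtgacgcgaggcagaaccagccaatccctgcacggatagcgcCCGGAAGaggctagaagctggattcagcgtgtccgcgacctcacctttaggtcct
MRPL51, chr12:6493213-6493512, minus strand: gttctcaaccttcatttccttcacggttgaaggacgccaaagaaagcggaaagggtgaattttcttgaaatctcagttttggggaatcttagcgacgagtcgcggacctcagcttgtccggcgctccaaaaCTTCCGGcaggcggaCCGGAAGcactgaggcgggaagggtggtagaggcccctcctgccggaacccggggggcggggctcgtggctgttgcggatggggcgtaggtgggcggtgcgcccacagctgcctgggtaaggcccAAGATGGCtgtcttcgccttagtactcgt
MRPS34, chr16:1773085-1773384, minus strand: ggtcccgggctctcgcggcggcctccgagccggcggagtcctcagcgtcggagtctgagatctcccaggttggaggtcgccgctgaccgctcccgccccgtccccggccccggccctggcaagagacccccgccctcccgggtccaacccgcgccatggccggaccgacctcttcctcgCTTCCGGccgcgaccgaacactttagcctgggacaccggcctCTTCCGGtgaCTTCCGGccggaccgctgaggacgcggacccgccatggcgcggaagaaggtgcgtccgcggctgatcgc
MRPS15, chr1:36464335-36464634, minus strand: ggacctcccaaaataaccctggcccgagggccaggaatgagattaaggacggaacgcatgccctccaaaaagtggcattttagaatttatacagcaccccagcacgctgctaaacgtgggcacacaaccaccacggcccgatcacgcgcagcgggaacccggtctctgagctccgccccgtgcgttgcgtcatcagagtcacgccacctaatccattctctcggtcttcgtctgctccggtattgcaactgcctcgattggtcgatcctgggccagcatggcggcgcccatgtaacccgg
MRPS18A, chr6:43687742-43687841, minus strand: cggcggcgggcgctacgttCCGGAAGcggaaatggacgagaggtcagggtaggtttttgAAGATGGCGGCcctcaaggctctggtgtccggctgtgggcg
MRPS18B, chr6:30617790-30617889, plus strand: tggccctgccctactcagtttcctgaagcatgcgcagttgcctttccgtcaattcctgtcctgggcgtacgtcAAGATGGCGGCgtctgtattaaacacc
MRPS18C, chr4:83456008-83456107, plus strand: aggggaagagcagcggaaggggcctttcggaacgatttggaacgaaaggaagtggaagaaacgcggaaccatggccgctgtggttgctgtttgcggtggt

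The ETS core was in 29 of the 69 member promoters, or 42.0%, against 14.2% of 15843 promoters of protein-coding genes, and the YY1 core was in 20 members, or 29.0%, against 3.91%. The longer YY1 form was in 10 members, or 14.5%, against 1.37%. Both cores stood together in 8 members, and 41 members held either. The 21 YY1 matches had a median position of 10 bases into the gene, and 15 of them began after its start. The 39 ETS matches had a median position of -22. The motif of the respiratory gene activator NRF1, searched with 1 free base at its centre, was in 11.6% of members against 8.58% of coding promoters, and the MYC-type E-box CACGTG in 8.70% against 8.88%. Of the promoters listed for 69 cytosolic ribosomal protein genes and 75 nuclear respiratory chain genes, 33.3% and 25.3% held the ETS core, 10.1% and 13.3% the YY1 core, and 10.1% and 21.3% the NRF1 motif. These shares describe letters in a window and not bound sites.

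ZBP1, the targeted gene, checked the labels of hairpin against scramble libraries. Since it fell with both hairpins, it could not check which hairpin or which H929 scramble group a library belonged to. In MM1.S, where levels are CPM (reads scaled to the size of the library) after TMM scaling, it stood at 22.2 and 26.3 with shRNA1, at 14.8 and 18.04 with shRNA2, and at 138 and 146 with scramble. In H929, where levels are the deposited normalised reads, it stood at 1659 and 1888 with shRNA1 against 4269 and 4513 with its scramble, and at 1229.5 and 1109.6 with shRNA2 against 3449 and 3729 with its own. The remaining mean level was 17.1% and 11.6% of scramble with shRNA1 and shRNA2 in MM1.S, and 40.4% and 32.6% in H929. Library totals were 20461980 to 28419331 reads in MM1.S and 15926867 to 22254348 in H929. The 6 plasma cell markers examined, among them SDC1 and TNFRSF17, lay between 92.9 and 1854 CPM in all 14 libraries. Of the markers of other cell types, CD3E (2.68 to 31.2 CPM over both lines), KRT18 in H929 (8.12 to 21.8 CPM), HBB in MM1.S (3.24 to 7.28 CPM) and CSF1R in H929 (0.822 to 3.10 CPM) stood above the others, which reached at most 1.00 CPM in any library, and their part in the results was not tested.

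Before any knockdown is considered, the members differed widely in level. On the scale of TPM, computed here as reads per summed exon length of each gene and scaled to the same total in each library, they ranged over the scramble libraries from 2.36 to 386 TPM with a median of 51.1 TPM in MM1.S, and from 1.15 to 389 TPM with a median of 47.5 TPM in H929. Only 6 members in each line were under 10 TPM. MRPS34, a small subunit protein found in mitochondria and not in bacteria, was the highest in MM1.S at 386 ± 61.4 TPM (SD, n = 2) and the second in H929 at 294 ± 10.3 and 364 ± 34.6 TPM in its scramble groups for shRNA1 and shRNA2 (SD, n = 2 each). MRPS21, homologue of bacterial S21, was the highest in H929 at 370.0 ± 9.26 and 409 ± 21.7 TPM in those groups, above MRPS34 in each group. MRPL51 followed in MM1.S at 202 ± 15.8 TPM, with MRPL15, MRPL37 and MRPL14 after it between 149 and 184 TPM, and in H929 MRPL41, MRPL24 and MRPL36 came after MRPS34, between 196 and 288 TPM. At the low end stood MRPS24, MRPL38, MRPL46, MRPL53 and MRPS17 in both lines. MRPS24, the lowest, shares exons with the annotated readthrough gene URGCP-MRPS24, so its reads may have been split. Across the 78 members the levels of the 2 lines had a Spearman rho of 0.884, a description over genes whose tables were normalised separately.

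Read shares of the members were lower with shRNA1 and not with shRNA2 than with scramble, a comparison without a test, since 2 libraries against 2 cannot pass an exact test. Of all reads in genes, the 78 members together took 0.278% and 0.280% in the 2 MM1.S shRNA1 libraries and 0.398% and 0.404% in the shRNA2 libraries, against 0.371% and 0.375% in the scramble libraries. In H929 they took 0.282% and 0.293% with shRNA1 against 0.365% and 0.352% with its scramble, and 0.447% and 0.443% with shRNA2 against 0.405% and 0.422% with its scramble. In both lines every shRNA1 library lay below, and every shRNA2 library above, the scramble libraries set against it. The summed scaled level gave the same order for shRNA1, at 2675 and 2748 scaled CPM against 3953 and 3907 in MM1.S, and at 42749 and 42955 normalised reads against 59948.5 and 59269 in H929. For shRNA2 it did not separate the groups, with 3822 and 4048 scaled CPM against 3953 and 3907 in MM1.S, and with 73103 and 71031 normalised reads against 71985 and 77625 in H929. In bulk RNA, fewer cells of a type and less RNA per cell cannot be told apart. The 2 mitochondrial rRNAs, partners of these proteins in the ribosome, were not lower with shRNA1. After poly(A) selection their share averaged 1.81% ± 0.288 with shRNA1, 2.06% ± 0.272 with shRNA2 and 1.48% ± 0.264 with scramble in MM1.S (SD, n = 2 each). In H929 it averaged 0.677% ± 0.0340 with shRNA1 against 0.423% ± 0.0209 with its scramble, and 0.650% ± 0.0072 with shRNA2 against 0.470% ± 0.0052 with its scramble (SD, n = 2 each).

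**Figure D1:**
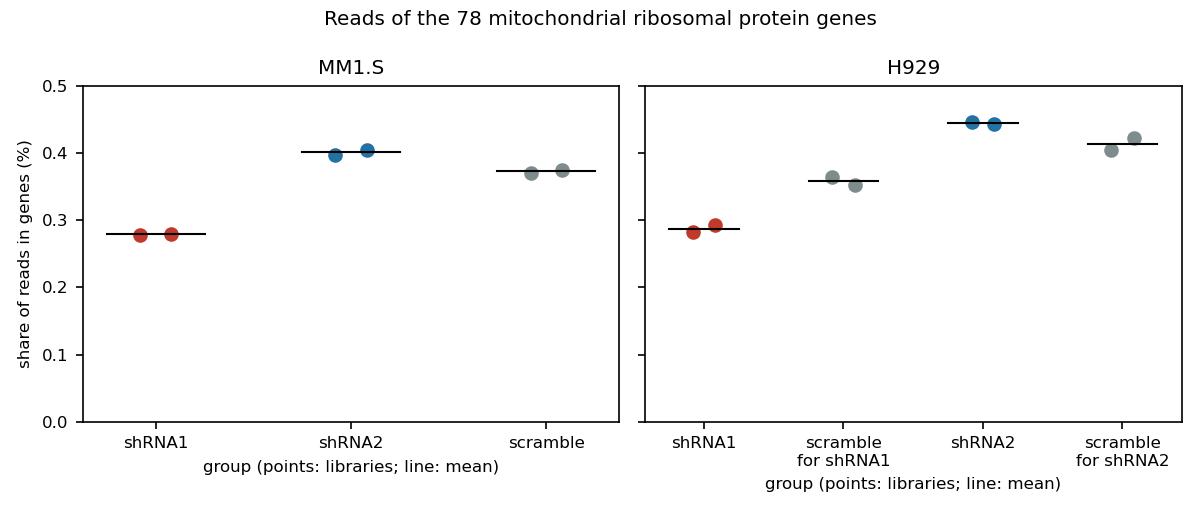
Share of all reads in genes taken by the 78 mitochondrial ribosomal protein genes (%, vertical axis from 0) in each library (points) of each group, with group means (lines), in MM1.S (left) and H929 (right). The shRNA1 libraries sit between 0.278% and 0.293% and below all scramble libraries of their line, while the shRNA2 libraries sit between 0.398% and 0.447%.

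Most members fell with shRNA1 in both lines. In MM1.S, 47 of the 78 were lower and 1 was higher than in scramble (edgeR quasi-likelihood test, Benjamini-Hochberg adjusted p < 0.05 over 17820 genes), where 19.7% of all tested genes were lower and 17.8% higher. The median log2 fold change of the members was -0.59, beside 0.0024 for all genes. In H929, 62 were lower and 2 higher (limma on log2 of the value plus 1, the same threshold over 18213 genes), beside 27.7% and 25.7% of all genes, and the members' median was -0.52 beside -0.0090. The authors' deposited tables gave 56 lower and 3 higher in MM1.S, and 54 lower and 2 higher in H929. Shares of all genes in the deposited tables are not given here for either hairpin. The main MM1.S test took no account of the replicate number. With that number as a block, 63 members were lower and 3 higher in MM1.S, beside 5513 and 5068 of the 17820 genes. The MM1.S count of 47 was 29 without shRNA1 replicate 1 and 31 without shRNA1 replicate 2.

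Fewer members were called with shRNA2 than with shRNA1 in each line. In MM1.S, 6 were lower and 4 higher, beside 21.7% and 14.9% of all genes, with a median of -0.0028 that turned to 0.10 when libraries were scaled by their totals. The replicate block made these counts 23 lower and 20 higher, beside 5695 and 4779 of 17820 genes. The authors' deposited table listed 16 lower and 13 higher. In H929, 16 were lower and 6 higher, beside 25.0% of all genes lower and 43.0% called in either direction, with a median of -0.11 that turned to 0.05 under library totals, and the authors' deposited table listed 9 lower and 4 higher. Against the scramble group for shRNA1 the same H929 libraries gave 1 lower and 35 higher, beside 3989 and 3197 of 18213 genes. The H929 count thus rests on which scramble group is used. It also rested on single libraries, with 7 lower without replicate 2 of the scramble, 9 without shRNA2 replicate 1 and 4 without shRNA2 replicate 2, and with 3 higher without scramble replicate 1 or either shRNA2 library. In MM1.S the 6 lower calls were 2 to 4 and the 4 higher ones 1 to 5 when each library was left out in turn, with 1 higher without scramble replicate 1 or either shRNA2 library, 3 lower without either shRNA1 library or shRNA2 replicate 1, and 2 lower without shRNA2 replicate 2.

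The hairpins were also compared with each other. In MM1.S, 41 members were higher and 1, MRPL30, was lower with shRNA2 than with shRNA1 (edgeR, adjusted p < 0.05), beside 16.4% and 20.4% of all genes, with a median log2 difference of 0.51. The replicate block gave 62 higher and 6 lower, beside 5113 and 5267 of 17820 genes. In H929 the difference between the shRNA2 effect and the shRNA1 effect, each over its own scramble, was above 0 for 45 members and below 0 for 3, beside 20.0% and 21.9% of all genes, with a median of 0.47. The mean remaining ZBP1 was lower with shRNA2 than with shRNA1 in both lines, where in H929 each was taken over a different scramble group. Any relation between remaining ZBP1 and the member calls was not tested.

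The H929 scramble groups differed from each other as well. In the scramble for shRNA2, 51 members were higher and 2, MRPL10 and MRPS5, lower than in the scramble for shRNA1 (limma, adjusted p < 0.05), beside 16.8% and 13.1% of all genes. The median log2 difference was 0.36. Under library totals it was 0.24, with 25 members higher, beside 1905 of 18682 genes. The count of 51 was 29 without replicate 2 of the scramble for shRNA1 and 25 without replicate 2 of the scramble for shRNA2. Against the scramble for shRNA2 the H929 shRNA1 median was -0.89, so for shRNA1 the direction was the same with either control group. With no scramble in the comparison, the median of shRNA2 over shRNA1 libraries in H929 was 0.86.

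**Figure D2:**
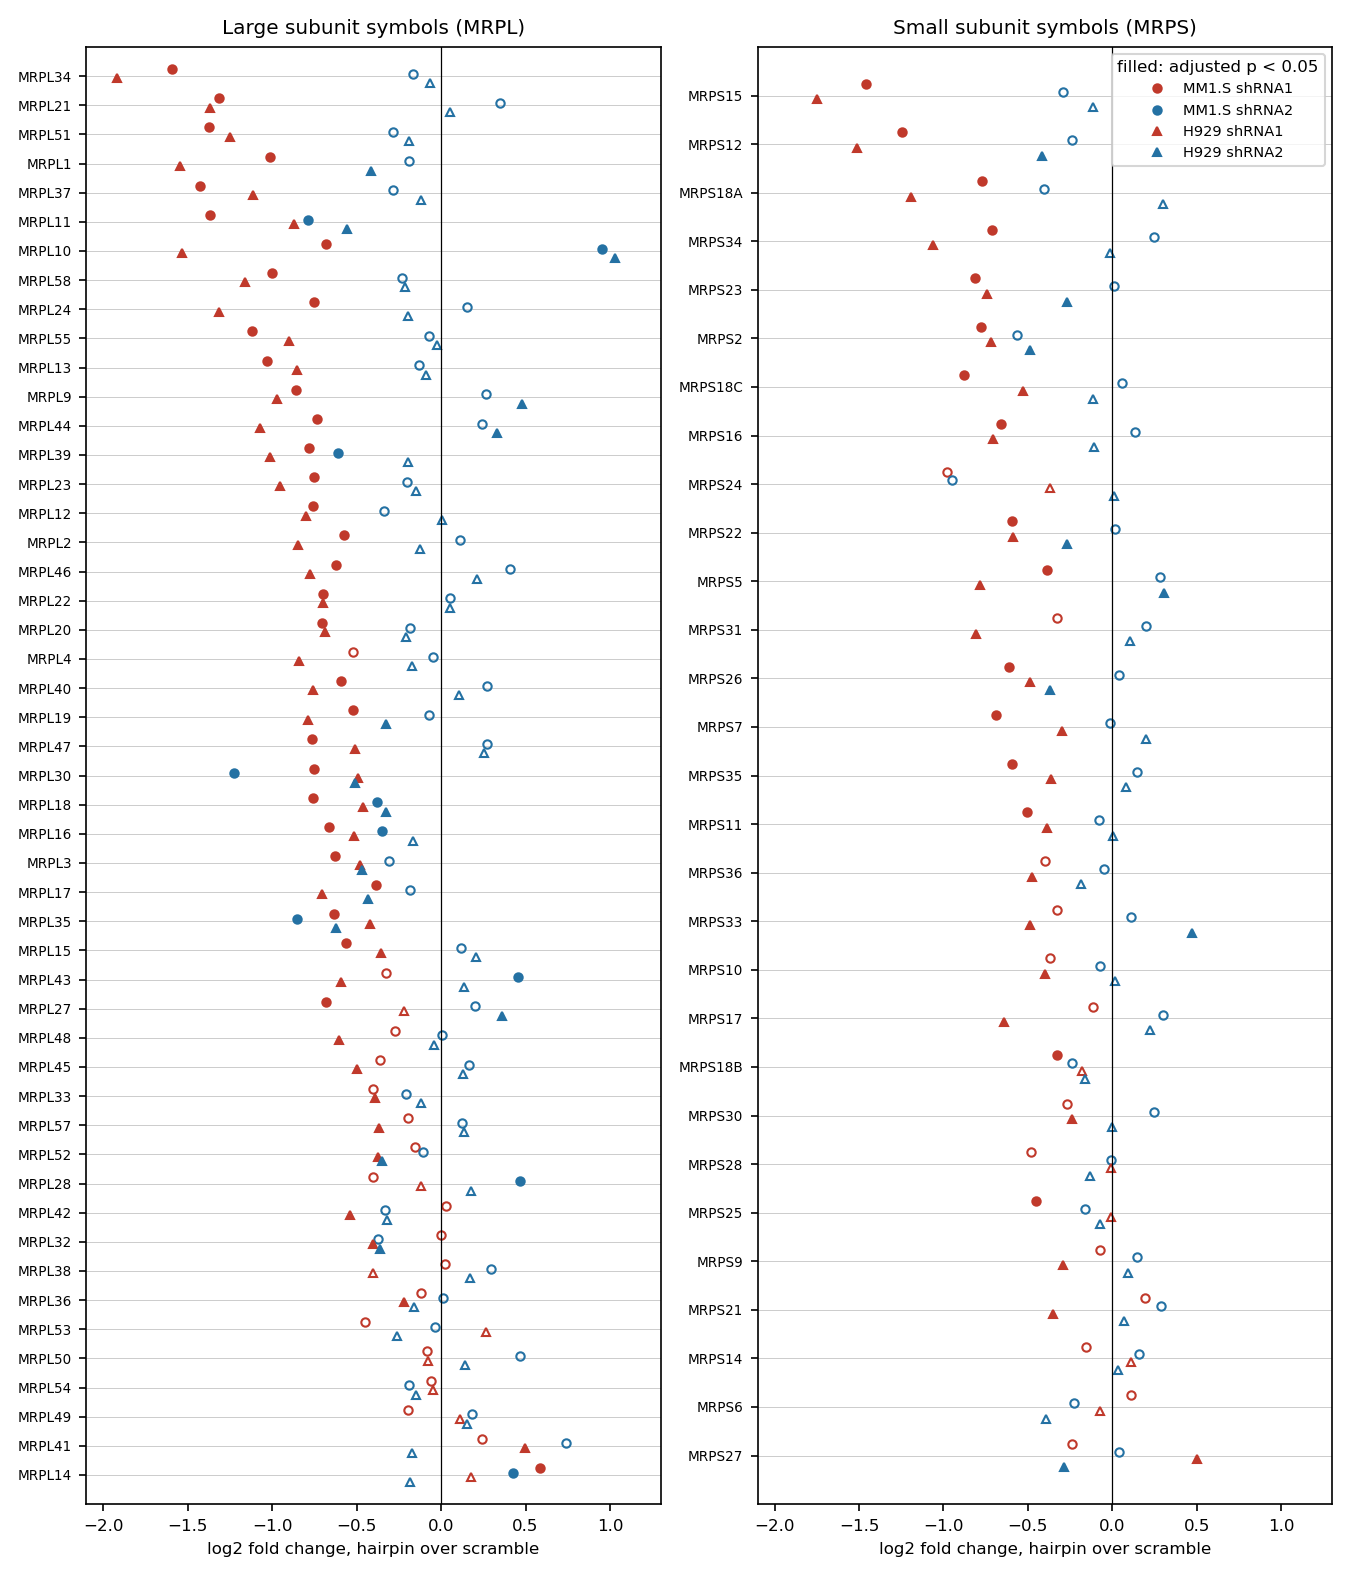
Log2 fold change of each of the 78 members (rows) with shRNA1 (red) and shRNA2 (blue) over scramble in MM1.S (circles) and H929 (triangles), with filled symbols for adjusted p < 0.05, for MRPL symbols (left) and MRPS symbols (right) ordered by the mean shRNA1 value. Red symbols lie mostly between -1.92 and 0 and blue symbols spread around 0, where the sign of their median depends on the scaling in both lines.

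The members were then counted by subunit and by whether they have a bacterial homologue. With shRNA1, 19.7% of all genes were lower in MM1.S and 27.7% in H929. Of the 29 large subunit members with bacterial homologues, 23 were lower in MM1.S and 26 in H929, with median log2 fold changes of -0.68 and -0.70. Of the 21 large subunit members specific to mitochondria, 8 were lower in MM1.S and 15 in H929, with medians of -0.32 and -0.54. In the small subunit, 7 of 15 bacterial homologues were lower in MM1.S and 11 in H929, with medians of -0.48 and -0.39, and of 9 specific to mitochondria 6 and 7 were lower, with medians of -0.59 and -0.49. With shRNA2 in MM1.S no member with an MRPS symbol passed the edgeR threshold, beside 21.7% of all genes lower and 14.9% higher. With the replicate block 7 were lower and 6 higher, beside 5695 and 4779 of 17820 genes. In H929 6 of 29 were lower and 2 higher, beside 25.0% of all genes lower and 43.0% called in either direction. Differences between these classes were not tested.

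MRPL34, homologue of the bacterial large subunit protein L34, was the member that fell most with shRNA1 in both lines. Its gene lies at chr19:17292609-17306843 on the plus strand (GRCh38, GENCODE 29) and overlaps exons of ABHD8 on the other strand. It stood at 19.5 and 26.2 scaled CPM with shRNA1, at 52.4 and 70.2 with shRNA2, and at 61.9 and 75.9 with scramble in MM1.S. The shRNA1 libraries were well below the others, and the shRNA2 and scramble libraries overlapped. The log2 fold change was -1.59 ± 0.21 with shRNA1 (SE, edgeR adjusted p = 0.00085) and -0.17 ± 0.20 with shRNA2 (adjusted p = 0.54). Within each replicate number the shRNA2 library was below the scramble library. With the replicate block MRPL34 was called lower with shRNA2 as well (-0.17, edgeR adjusted p = 0.028). In H929 it stood at 401 and 354 normalised reads with shRNA1 against 1462 and 1389 with its scramble, and at 1563 and 1494 with shRNA2 against 1497 and 1702 with its scramble. There the change was -1.92 ± 0.10 with shRNA1 (limma adjusted p = 2.6e-10) and -0.06 ± 0.10 with shRNA2 (adjusted p = 0.63).

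MRPS15, homologue of bacterial S15, which binds the small rRNA early in assembly, was the small subunit member that fell most. It lies at chr1:36455718-36464437 on the minus strand with no gene over its exons, and its promoter, printed above, holds neither motif. In MM1.S it stood at 22.3 and 23.0 scaled CPM with shRNA1, at 52.6 and 49.1 with shRNA2, and at 62.9 and 61.6 with scramble. In H929 it stood at 184 and 159 normalised reads with shRNA1 against 589.7 and 566 with its scramble, and at 726 and 781 with shRNA2 against 733 and 904 with its scramble. Only the shRNA1 libraries lay apart in H929, whereas in MM1.S both hairpins lay below scramble. The shRNA1 changes were -1.46 ± 0.12 in MM1.S (edgeR adjusted p = 0.00012) and -1.75 ± 0.12 in H929 (limma adjusted p = 6.9e-09), and those with shRNA2 were -0.29 ± 0.12 (adjusted p = 0.084) and -0.11 ± 0.12 (adjusted p = 0.48), the last of which was 0.38 and called higher against the other scramble group. With the replicate block the MM1.S shRNA2 value was called lower (-0.29, edgeR adjusted p = 0.0020), as it was in the authors' deposited table (-0.27).

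MRPL37, a large subunit protein specific to mitochondria, and MRPL21, homologue of bacterial L21, were also lowest with shRNA1 in both lines. MRPL37 stood at 54.6 and 64.0 scaled CPM with shRNA1, at 123 and 139 with shRNA2, and at 159 and 161 with scramble in MM1.S. Its shRNA1 change was -1.43 ± 0.13 in MM1.S (edgeR adjusted p = 0.0002) and -1.12 ± 0.09 in H929 (limma adjusted p = 5.6e-08), and its exons overlap those of CYB5RL and SSBP3 on the other strand. With the replicate block MRPL37 was also called lower with shRNA2 in MM1.S (-0.29, edgeR adjusted p = 0.0019). MRPL21 stood in H929 at 209 and 199 normalised reads with shRNA1 against 568 and 489.6 with its scramble, and at 798 and 733 with shRNA2 against 689 and 791 with its scramble. It fell by 1.37 ± 0.11 on the log2 scale with shRNA1 in H929 and by 1.32 ± 0.14 in MM1.S, and with shRNA2 its libraries there were above both scramble libraries (34.3 and 38.3 against 28.4 and 28.5 scaled CPM), a difference called with the replicate block (0.35). Called members below a log2 fold change of -1 with shRNA1 numbered 11 in MM1.S and 14 in H929, beside 8.63% and 9.93% of all genes, and MRPL1, MRPL21, MRPL34, MRPL37, MRPL51, MRPL58, MRPS12 and MRPS15 were in both sets. MRPL58, also known as ICT1, is a peptidyl-tRNA hydrolase built into the large subunit, and MRPS12 is the homologue of the bacterial decoding centre protein S12. With shRNA2, 1 called member in MM1.S and 0 in H929 were below that value, beside 12.1% and 7.96% of all genes.

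MRPL10 moved in opposite directions with the 2 hairpins in both lines, and was the 1 member to do so in MM1.S, beside 2.76% of all genes there. With the replicate block 16 members did so in MM1.S, for which no share of all genes is given here. MRPL10 is the homologue of bacterial L10, which anchors the stalk of the large subunit, and its gene lies at chr17:47823272-47831534 on the minus strand with no gene over its exons. In MM1.S it stood at 25.9 and 29.9 scaled CPM with shRNA1, at 82.0 and 91.4 with shRNA2, and at 41.3 and 48.2 with scramble. In H929 it stood at 552 and 505 normalised reads with shRNA1 against 1425 and 1652 with its scramble, and at 2361 and 2343 with shRNA2 against 1139 and 1169 with its scramble. The groups did not overlap in either line, and the shRNA2 libraries were above all scramble libraries of their line. The changes with shRNA1 were -0.68 ± 0.14 in MM1.S (edgeR adjusted p = 0.0075) and -1.54 ± 0.09 in H929 (limma adjusted p = 2e-09), and those with shRNA2 were 0.95 ± 0.14 (adjusted p = 0.0016) and 1.03 ± 0.09 (adjusted p = 4.4e-07). Without shRNA1 replicate 1 the MM1.S shRNA1 value was -0.54 and missed the threshold.

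In H929, 5 more members were called in opposite directions with the hairpins, which makes 6 of 78 beside 7.98% of all genes. MRPL9, MRPL44, MRPS33 and MRPS5 were lower with shRNA1 and higher with shRNA2, at 0.48 ± 0.10 (limma adjusted p = 0.00094), 0.33 ± 0.11 (adjusted p = 0.028), 0.47 ± 0.11 (adjusted p = 0.0037) and 0.31 ± 0.09 (adjusted p = 0.012) with shRNA2. MRPL44 resembles a double-stranded RNA endonuclease, and MRPS5 is the homologue of bacterial S5. The MRPL44 and MRPS5 calls with shRNA2 were lost without scramble replicate 1 (0.24 and 0.23), shRNA2 replicate 1 (0.30 and 0.28) or shRNA2 replicate 2 (0.35 and 0.34), and MRPS5 was at -0.0085 against the other scramble group. MRPS27, a pentatricopeptide repeat protein of the small subunit, went the other way, at 0.50 ± 0.08 with shRNA1 (adjusted p = 5.4e-05) and -0.29 ± 0.08 with shRNA2 (adjusted p = 0.008). It stood at 3858 and 3873 normalised reads with shRNA1 against 2672 and 2795 with its scramble, and at 2827 and 2741 with shRNA2 against 3376 and 3411 with its scramble. The shRNA2 libraries were thus close to the scramble for shRNA1, and its exons overlap those of PTCD2 on the other strand. Its shRNA2 value was 0.027 against the other scramble group and missed the threshold under library totals (-0.13) and without shRNA2 replicate 1 (-0.31) or replicate 2 (-0.26). MRPL41, of the large subunit, was the other member higher with shRNA1 in H929, at 0.50 ± 0.09 (adjusted p = 0.00032), and at 0.18, short of the threshold, against the other scramble group.

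MRPL11, MRPL18, MRPL30 and MRPL35 were lower with both hairpins in both lines, each over its own scramble. Over all genes, 2210 were lower in both lines with shRNA1 and 2410 with shRNA2. The share of all genes lower in all 4 comparisons is not given here, so the count of 4 members cannot be weighed against it. Against the other H929 scramble group none of them was lower with shRNA2 by the limma test: MRPL18 was called higher (0.36, adjusted p = 0.026), and MRPL11 (0.13), MRPL35 (-0.093) and MRPL30 (-0.13) were not called. MRPL30, homologue of bacterial L30, was the 1 member lower with shRNA2 than with shRNA1 in the direct MM1.S comparison, at -0.47 ± 0.14 (edgeR adjusted p = 0.031). That call was lost with DESeq2 (-0.45) and without a filter (-0.44), and without shRNA1 replicate 1 (-0.42) or 2 (-0.54) or shRNA2 replicate 1 (-0.47) or 2 (-0.47), while the replicate block called MRPL14, MRPL32, MRPL35, MRPL42 and MRPS6 lower as well. It stood at 25.3 and 23.4 scaled CPM with shRNA1, at 17.5 and 17.6 with shRNA2, and at 44.1 and 37.8 with scramble, so the 3 groups did not overlap. Its log2 fold change over scramble was -0.75 ± 0.14 with shRNA1 (adjusted p = 0.0042) and -1.23 ± 0.14 with shRNA2 (adjusted p = 0.00051) in MM1.S, and -0.49 ± 0.13 (limma adjusted p = 0.004) and -0.51 ± 0.13 (adjusted p = 0.0044) in H929. The H929 shRNA2 call was lost without scramble replicate 1 (-0.43) or shRNA2 replicate 2 (-0.43). Its exons overlap AC079447.1 and AC092587.1 on the same strand.

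MRPL11, homologue of bacterial L11 at the base of the stalk, stood at 17.6 and 17.7 scaled CPM with shRNA1, at 26.0 and 26.8 with shRNA2, and at 46.1 and 45.2 with scramble in MM1.S. The groups were far apart relative to their spread, with changes of -1.37 ± 0.12 with shRNA1 (edgeR adjusted p = 0.00017) and -0.79 ± 0.12 with shRNA2 (adjusted p = 0.0019). In H929 it stood at 167 and 203 normalised reads with shRNA1 against 364 and 312 with its scramble, and at 381 and 357 with shRNA2 against 483 and 611 with its scramble. The H929 shRNA2 value of -0.56 ± 0.14 (limma adjusted p = 0.0047) missed the threshold at -0.39 without scramble replicate 2 and at -0.51 without shRNA2 replicate 2. MRPL35, homologue of bacterial L35, stood at 46.6 and 40.3 scaled CPM with shRNA1, at 39.6 and 34.8 with shRNA2, and at 76.9 and 57.9 with scramble, and fell by 0.63 ± 0.17 and 0.86 ± 0.17 on the log2 scale in MM1.S. Its MM1.S calls were lost without scramble replicate 1 (-0.42 with shRNA1), shRNA1 replicate 2 (-0.49 with shRNA1) or shRNA2 replicate 2 (-0.76 with shRNA2), and in H929 it was at -0.42 ± 0.10 with shRNA1 and -0.62 ± 0.10 with shRNA2. MRPL18, homologue of bacterial L18, which binds the small ribosomal RNA of bacterial large subunits, was at -0.76 ± 0.12 and -0.38 ± 0.12 in MM1.S, and its shRNA2 call there (adjusted p = 0.041) was lost whichever library was left out, with values of -0.39 to -0.34, and with DESeq2 (-0.36), median-of-ratios scaling (-0.35), library totals (-0.27), no filter (-0.34) or the compared groups alone (-0.36). In H929 MRPL18 was at -0.46 ± 0.12 with shRNA1 and -0.33 ± 0.12 with shRNA2. The shRNA1 call there was lost without replicate 1 of its scramble (-0.34), and the shRNA2 call under library totals (-0.17), TMM scaling (-0.30), edgeR (-0.29), DESeq2 (-0.33) or no filter (-0.33), and without scramble replicate 1 (-0.36) or 2 (-0.30) or shRNA2 replicate 1 (-0.34) or 2 (-0.31).

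In MM1.S, MRPL14 rose with both hairpins. With the replicate block MRPL41 (0.24 and 0.75 with shRNA1 and shRNA2) and MRPS21 (0.19 and 0.29) also did. MRPL14, homologue of bacterial L14 at the face of the large subunit that meets the small one, stood at 71.1 and 78.1 scaled CPM with shRNA1, at 64.2 and 69.2 with shRNA2, and at 46.7 and 52.7 with scramble. All 4 hairpin libraries were above both scramble libraries, with changes of 0.59 ± 0.13 with shRNA1 (edgeR adjusted p = 0.0085) and 0.43 ± 0.13 with shRNA2 (adjusted p = 0.032). The shRNA2 call was lost without scramble replicate 1 (0.34), shRNA2 replicate 1 (0.48) or shRNA2 replicate 2 (0.37). In H929, MRPL14 stood at 638 and 670.2 normalised reads with shRNA1 against 573 and 584 with its scramble (0.18 ± 0.10, limma adjusted p = 0.14), and at 595 and 565 with shRNA2 against 646 and 673 with its scramble (-0.19 ± 0.10, adjusted p = 0.13). MRPL28 and MRPL43, also of the large subunit, were the other members besides MRPL10 higher with shRNA2 in MM1.S, both at 0.46, and both calls were lost without scramble replicate 1 (0.33 and 0.38), shRNA2 replicate 1 (0.57 and 0.54) or shRNA2 replicate 2 (0.36 and 0.37).

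**Figure D3:**
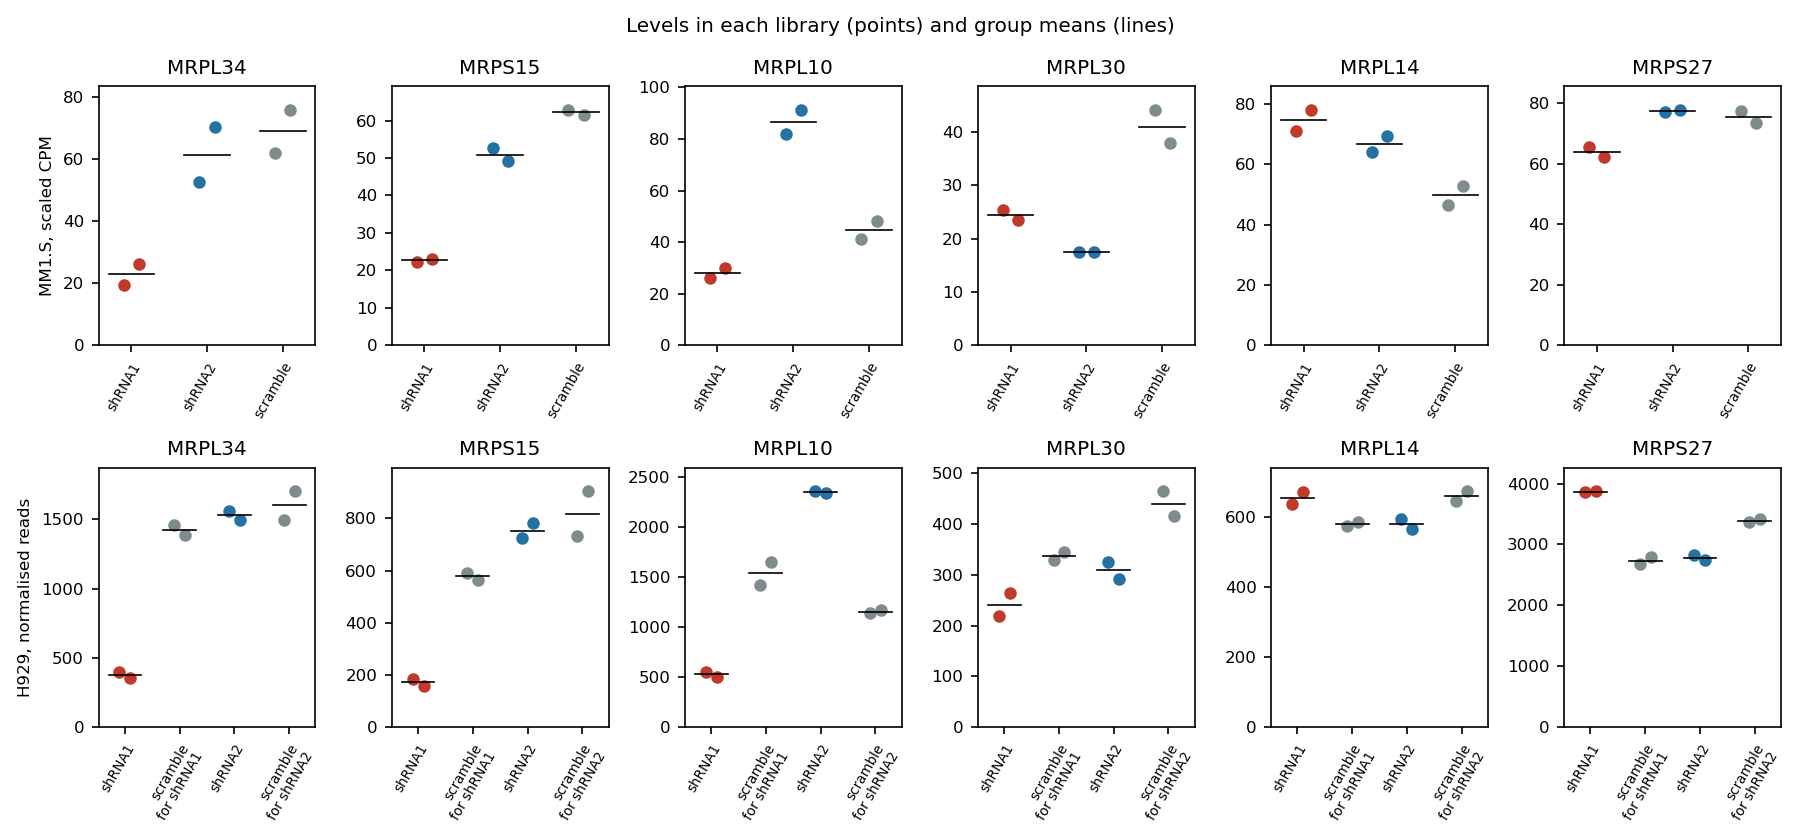
Levels of 6 members in each library (points, with group means as lines), in scaled CPM for MM1.S (top) and deposited normalised reads for H929 (bottom), all axes from 0. MRPL34 and MRPS15 are lowest with shRNA1 in both lines, MRPL10 is lowest with shRNA1 and highest with shRNA2 in both, MRPL30 is lowest with shRNA2 in MM1.S, MRPL14 is above scramble with both hairpins in MM1.S, and MRPS27 is highest with shRNA1 in H929.

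The S18 paralogues take separate places in the ribosome, MRPS18C in the position of bacterial S18, MRPS18B elsewhere in the small subunit and MRPS18A in the large subunit. With shRNA1 the log2 fold changes of MRPS18A, MRPS18B and MRPS18C were -0.77 ± 0.22, -0.33 ± 0.11 and -0.88 ± 0.15 in MM1.S (edgeR adjusted p = 0.027, 0.049 and 0.0026), and -1.19 ± 0.13, -0.18 ± 0.09 and -0.53 ± 0.12 in H929 (limma adjusted p = 1.6e-06, 0.11 and 0.0019). MRPS18A stood at 141 and 116 normalised reads with shRNA1 against 306 and 282 with its scramble in H929, and MRPS18B at 1074 and 1117 against 1232 and 1252. The MRPS18B promoter holds the longer YY1 form, that of MRPS18A both the YY1 form and an ETS core, and that of MRPS18C an ETS core upstream of the stretch printed and no YY1 core. The MM1.S call of MRPS18B was lost whichever library was left out (-0.36 to -0.26), and that of MRPS18A without scramble replicate 2 (-0.65) or shRNA1 replicate 1 (-0.49). None of the 3 passed the threshold with shRNA2 in either line, although with the replicate block MRPS18A and MRPS18B did in MM1.S (-0.41 and -0.24).

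A few members have roles that the symbol does not show. MRPL12, homologue of the bacterial stalk protein L7/L12 and also reported to bind the mitochondrial RNA polymerase, was at -0.76 ± 0.25 with shRNA1 in MM1.S (edgeR adjusted p = 0.043) and at -0.80 ± 0.11 in H929 (limma adjusted p = 1.5e-05). The MM1.S value missed the threshold without scramble replicate 2 (-0.65) or shRNA1 replicate 1 (-0.46). MRPS30 sits in the large subunit in spite of its symbol and was at -0.27 ± 0.12 in MM1.S (adjusted p = 0.12) and -0.24 ± 0.09 in H929 (adjusted p = 0.034), a call lost under library totals (-0.08) and without scramble replicate 1 (-0.16), shRNA1 replicate 1 (-0.18) or either shRNA2 library (-0.24 for each). With the replicate block it was called in MM1.S with shRNA1 (-0.27) and with shRNA2 (0.25). MRPS36 is now regarded as a subunit of the 2-oxoglutarate dehydrogenase complex. It was at -0.40 ± 0.20 in MM1.S (adjusted p = 0.16, but called with the replicate block, and at -0.63 called without scramble replicate 2) and at -0.48 ± 0.11 in H929 (adjusted p = 0.0023).

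Most members lower with shRNA1 in MM1.S were also lower in H929, and the 2 lines share no library. Of the 47 members lower in MM1.S and the 62 lower in H929, 44 were shared, which is 93.6% and 71.0% of the sets. Over all genes 2210 lower calls were shared, 62.9% of the MM1.S and 43.8% of the H929 calls. In H929, 79.5% of the members but 27.7% of all genes were lower, so the overlaps start from unlike rates. Whether the members overlapped beyond their own rates was not tested. Of these 44 members, 28, or 63.6%, were also higher with shRNA2 than with shRNA1 in both lines, beside 744 of the 2210 genes, or 33.7%. The comparisons of the hairpins share the shRNA1 libraries with those lower calls. Across the 78 members, which share their libraries and so are not independent, the log2 fold changes of the lines had a Pearson r of 0.744 and a Spearman rho of 0.718 for shRNA1, and 0.652 and 0.648 for shRNA2. Neither hairpin gave a call in either line, without the replicate block, for 9 members, MRPL38, MRPL49, MRPL50, MRPL53, MRPL54, MRPS6, MRPS14, MRPS24 and MRPS28, of which MRPL38, MRPL53 and MRPS24 were among the 5 lowest in TPM in both lines. With the block 6 of the 9 were called in MM1.S, all but MRPL38, MRPL53 and MRPS6. The share of all genes without a call is not given here, so the count of 9 cannot be weighed against it.

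**Figure D4:**
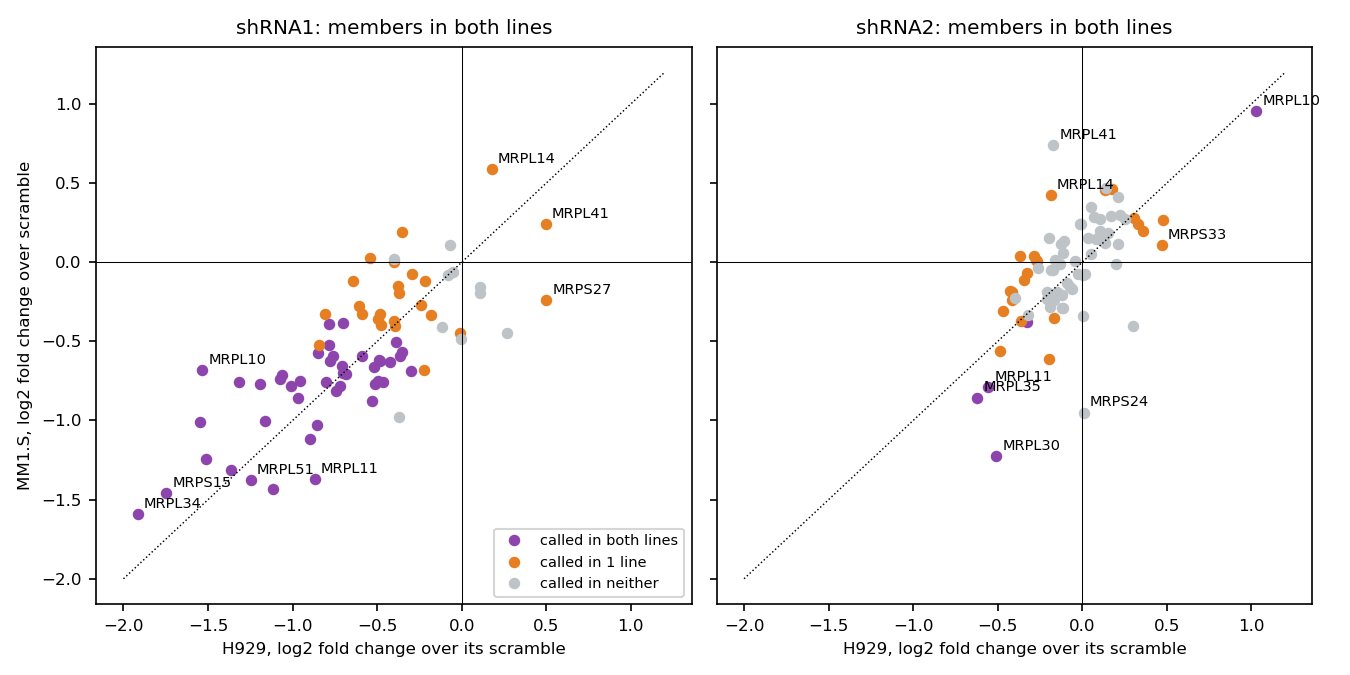
Log2 fold changes of the 78 members over scramble in MM1.S (vertical) against H929 (horizontal) for shRNA1 (left) and shRNA2 (right), coloured by the number of lines in which they were called, with the dotted line of equal change. With shRNA1, 44 members lie below 0 and are called in both lines. With shRNA2, MRPL10, the 1 member called higher in both lines, stands furthest to the upper right. MRPL11, MRPL18, MRPL30 and MRPL35, at the lower left, are those called lower in both lines.

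The direct test of the difference between the lines, over 20370 genes and all 14 libraries, called few members. The shRNA1 effect was higher in MM1.S than in H929 for 4 members and lower for 3 (limma, adjusted p < 0.05), beside 10.4% and 11.0% of all genes, and the shRNA2 effect was higher for 1 and lower for 1, beside 4.34% and 5.41%. The medians of these differences were 0.04 and 0.05. The largest called difference with shRNA1 was that of MRPL10, at 0.85 ± 0.16 (adjusted p = 0.0026), which fell less in MM1.S than in H929. The next was MRPS27 at -0.74 ± 0.11 (adjusted p = 0.0006). When the other H929 scramble group was used, the MRPL10 difference missed the threshold, as did those of MRPS5, MRPS25 and MRPS7. With the replicate block the shRNA1 counts were 11 and 5, beside 3057 and 3343 of all genes. With the other H929 scramble group 24 were higher, beside 2520 of all genes.

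Other genes of the same machinery, taken from lists of known components, are given for context. Of the 5 further proteins of this ribosome with other symbols, AURKAIP1, CHCHD1, GADD45GIP1 and PTCD3 were lower with shRNA1 in both lines and DAP3 in H929, and with shRNA2 DAP3 was lower in H929 and none was called in MM1.S (edgeR). Of 28 genes for assembly and rRNA modification, 13 were lower and 2 higher with shRNA1 in MM1.S, and 14 and 3 in H929, beside 3 and 2, and 5 and 3, with shRNA2. Among these, MPV17L2 was lower with both hairpins in MM1.S (-0.67 and -0.94), and RBFA (-1.49 and -1.03) and C1QBP (-1.19 and -0.72) in H929. Against the direction of most calls, the GTPase gene MTG1, which acts in assembly of the large subunit, was higher with both hairpins. Its values were 0.53 and 0.97 in MM1.S and 1.11 and 0.58 in H929. Of 16 translation factors, 7 were lower with shRNA1 in MM1.S and 8 in H929, against 2 and 3 with shRNA2, and 1 and 2 were higher with shRNA1, against 2 and 3 with shRNA2.

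Mitochondrial tRNA synthetases load the tRNAs that this ribosome reads. Of 20 synthetases and their partners, 10 were lower with shRNA1 and 9 with shRNA2 in MM1.S, and 11 and 7 in H929, while in MM1.S 0 and 1, and in H929 2 and 0, were higher. TFAM, the factor that packages mitochondrial DNA and starts its transcription, was lower with both hairpins in both lines (-1.10 and -0.78 in MM1.S, -1.11 and -0.53 in H929). MYC, a regulator of many biosynthetic genes, was lower with both hairpins in H929 (-0.72 and -1.19), and in MM1.S it was at 0.0084 with shRNA1 (edgeR adjusted p = 0.97) and -1.10 with shRNA2. TFAM and MYC belong to a list of 14 genes of mitochondrial transcription and its nuclear regulators, of which 6 were lower and 1 higher with shRNA1 in MM1.S and 3 and 1 with shRNA2. Of the 13 tested in H929, 4 were lower and 2 higher with shRNA1, and 5 and 1 with shRNA2. With shRNA1 the lower ones were NRF1, PPARGC1A, PPRC1, TEFM, TFAM and TFB2M in MM1.S, and GABPA, MYC, PPRC1 and TFAM in H929. PPARGC1B was higher with shRNA1 in both lines and YY1 in H929 only. With shRNA2, MYC, PPARGC1A and TFAM were lower in both lines, and PPARGC1B and PPRC1 in H929, while ESRRA was higher in both. The nuclear genes of the respiratory chain gave counts close to those of the members with shRNA1, with 50 of 84 lower with shRNA1 in MM1.S and 66 of 83 in H929, medians of -0.58 and -0.63, against 9 of 84 and 10 of 83 with shRNA2. In the other direction, 2 were higher with shRNA1 in each line, and 9 in MM1.S and 14 in H929 with shRNA2. Of 37 genes of the mitochondrial genome, 2 were lower and 7 higher with shRNA1 in MM1.S, and 12 lower and 2 higher in H929. With shRNA2, 3 were lower and 4 higher in MM1.S, and 0 lower and 10 higher in H929.

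Cytosolic ribosomal protein genes, the counterparts of the members in the main ribosome of the cell, differed between the lines in the direct test. With shRNA1, 13 of 82 were lower in MM1.S and 80 of 83 in H929, with medians of -0.23 and -1.14. In the test between the lines the shRNA1 effect was higher in MM1.S than in H929 for 75 of the 83 tested (limma, adjusted p < 0.05), with a median difference of 0.95, against 4 of the 78 mitochondrial members and a median of 0.04. The member median was 0.18 with TMM scaling, 0.40 with the other H929 scramble group and 0.22 with the mean of both. With shRNA2, 10 cytosolic genes were higher and 1 lower in MM1.S, and 2 higher and 16 lower in H929.

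**Figure D5:**
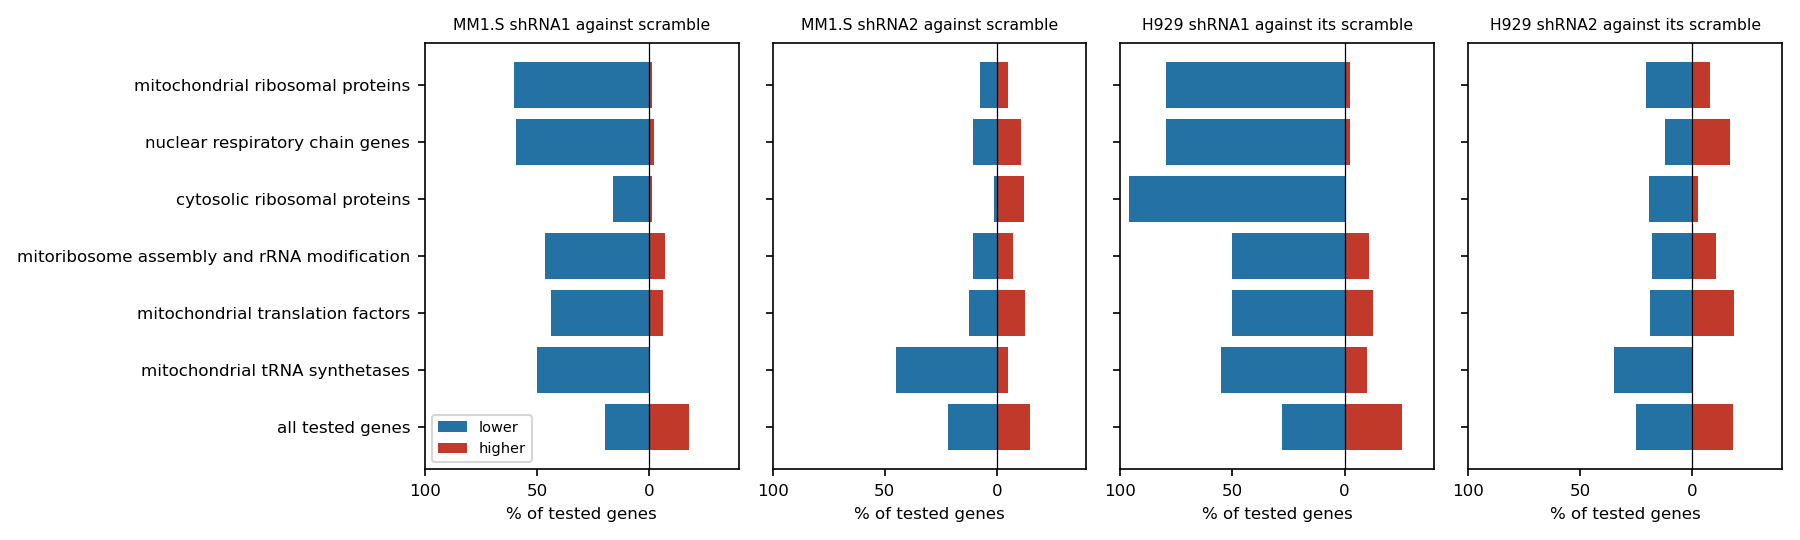
Percent of the tested genes of each list called lower (blue, to the left) and higher (red, to the right) at adjusted p < 0.05 in the 4 comparisons of a hairpin with its scramble, with all tested genes in the last row. The mitochondrial ribosomal proteins (60.3% lower in MM1.S and 79.5% in H929 with shRNA1) and the nuclear respiratory chain genes have most of their shRNA1 calls on the lower side in both lines, while the cytosolic ribosomal proteins differ between the lines.

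Members with and without each promoter motif are set side by side here. The 29 members with an ETS core had a median shRNA1 change of -0.61 in MM1.S and -0.52 in H929, and the 40 without had medians of -0.51 and -0.52. For the 20 members with the YY1 core the medians were -0.37 and -0.40, against -0.59 and -0.59 for the 49 without it. With a YY1 core, 9 of 20 were lower with shRNA1 in MM1.S and 15 in H929, against 31 and 39 of 49 without. These are descriptions without a test. Annotation limits the readings of single members, since the exons of 41 of the 78 overlap another gene, 29 on the opposite strand and 16 on the same strand, and whether the counting used strand is not given in the sources used here.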

How the data were processed

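Libraries were made from poly(A) RNA of MM1.S and H929 cells grown in RPMI medium, with NEBNext Ultra II kits, per the labels' protocols. The submitters' processing notes name the build GRCh38 (hg38), the aligner STAR 2.5.3a and DESeq2 1.24.0. The counting tool, annotation and strandedness are not given in the sources used here. The deposited MM1.S table holds raw counts per gene, per the file headers. The deposited H929 table, also named as counts, holds a normalised signal: its values are counts divided by 1 size factor per library, and multiplied back they were whole reads with a largest deviation of 0.000135 (tolerance 0.001), for 100% of values. The authors also deposited log2 fold changes and adjusted p-values, per the file headers. Of 58069 rows in each table, 18 repeated identifiers were left out.

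MM1.S counts were tested with edgeR 4.0.16 (quasi-likelihood, TMM, filterByExpr with a minimum count of 10, 6 libraries in 1 fit) and H929 values with limma 3.58.1 (trend, log2 of the value plus a pseudocount of 1, values of at least 10 in at least 2 libraries, 8 libraries in 1 fit), in R 4.3.3, so that H929 fold changes understate low genes. The design allowed for edgeR in H929 if its table held counts, and limma was used because it did not. On the recovered reads, edgeR called 4955 genes higher and 4980 lower with shRNA1 in H929, and 3739 and 4283 with shRNA2. The lines were compared with limma over 14 libraries, MM1.S counts divided by median-of-ratios size factors. All p-values were adjusted over all genes tested with Benjamini-Hochberg. The scripts were tested on simulated data. Intervals of counting error are not given, since replicate error is larger.

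By elimination from their names, columns were given to shRNA2 and to the second H929 scramble library for shRNA1. In MM1.S the deviations of libraries with the same replicate number from their group means correlated at 0.571, 0.499 and 0.769 across 11200 genes, so the numbers were taken to pair the libraries, although no label says what they stand for. In H929 the correlations were -0.167 to 0.204, and the numbers were not taken as pairs. The main MM1.S tests modelled the groups alone, so their p-values and missed calls leave the pairing out. They are to be read beside those with the replicate block. With it, calls over all genes with shRNA1 in MM1.S went from 3516 lower and 3173 higher to 5513 and 5068.

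The members, context lists and tests were chosen with earlier results of these data known. Cytosolic ribosomal and respiratory chain genes were limited to protein-coding genes after pseudogenes were seen. Members named with full values were those called the same way or in opposite ways with both hairpins, the largest called with 1 hairpin, those that differed between lines, the 5 highest and lowest in TPM, the S18 paralogues, MRPS30, MRPS36 and MRPL12. MRPS33, MRPL18, MRPL30, MRPL35, MRPL41 and MRPS27 in H929, members named for the replicate block, YY1, ESRRA, the other regulators named with them and the printed promoters were chosen after their values were seen. Positions are from GENCODE 29, and 69 members matched RefSeq promoters by symbol. Members with no promoter entry were MRPL2, MRPL10, MRPL13, MRPL15, MRPL21, MRPL23, MRPL35, MRPS28 and MRPS36. Alternatives were other scalings, filters, pseudocounts and tools, the replicate block, each library left out and, added after seeing the data, other uses of the H929 scramble groups.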

Additional observations from a re-analysis of the deposited data

Results flagged for a closer look

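The effect of shRNA1 differed between the lines, by the test of the difference itself, for 7 members. MRPL10 (0.85), MRPL24 (0.56), MRPS21 (0.54) and MRPS5 (0.39) had a higher log2 fold change in MM1.S than in H929, and MRPS27 (-0.74), MRPS25 (-0.44) and MRPS7 (-0.39) a lower one. MRPL24 fell in both lines, at -0.75 in MM1.S and -1.32 in H929. MRPS21 was at 0.19 in MM1.S and -0.35 in H929, and MRPS25 at -0.45 in MM1.S and -0.01 in H929. Among these, the values of MRPL10, MRPS5, MRPS25 and MRPS7 missed the threshold when the other H929 scramble group was used, at 0.44, 0.08, -0.15 and 0.019. The effect of shRNA2 differed between the lines for MRPL14 (0.63) and MRPL30 (-0.69). Both were lost without replicate 2 of the H929 scramble for shRNA2 (0.60 and -0.61) and without H929 shRNA2 replicate 2 (0.59 and -0.77).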

How the results depend on the processing

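Among 1579 alternative values of named members, 1357 kept their side of the threshold without a counted reversal. Another 189 fell short of it, 18 passed it newly and 15 reversed. Values short of the threshold could change sign without being counted as reversed. With single libraries left out, shRNA2 values of MRPL34 ran from -0.39 to 0.032 in MM1.S, and those of MRPS15 from -0.26 to 0.038 in H929. Against the other H929 scramble group, shRNA2 values reversed for MRPL1 (0.50, and 0.044 against the mean of both groups), MRPL11 (0.13), MRPL17 (0.15), MRPL18 (0.36, and 0.018 against the mean), MRPL19 (0.20), MRPS12 (0.042), MRPS15 (0.38), MRPS18C (0.34), MRPS27 (0.027), MRPS30 (0.46, and 0.23 against the mean) and MRPS5 (-0.0085), and the line difference of MRPS7 turned to 0.019. Library totals moved the median of all genes by 0.12 and 0.10 for MM1.S shRNA1 and shRNA2, and by 0.16 and 0.16 in H929. The member medians for shRNA1 were then -0.47 in MM1.S and -0.37 in H929. With shRNA1, 37 and 48 members were lower, beside 2831 of 17820 genes in MM1.S and 3949 of 18682 in H929. The causes were not tested.

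Calls over all genes moved with the settings too. For MM1.S shRNA2, genes called higher went from 2661 to 4779 with the replicate block and to 3383 with library totals. For H929 shRNA2 they went from 3274 to 3197 with the other scramble group. Counts of members moved as follows. In MM1.S with the replicate block, 3 were higher with shRNA1, 20 higher and 23 lower with shRNA2, and 62 higher and 6 lower with shRNA2 than shRNA1. For MM1.S shRNA2, library totals gave 10 higher and 3 lower, beside 3383 and 3293 of 17820 genes. Median-of-ratios scaling or the compared groups alone gave 3 lower, beside 3709 of 17820 and 3640 of 17187 genes. For shRNA2 over shRNA1, DESeq2 and no filter gave 0 lower, beside 3000 of 18939 and 3946 of 37067 genes. In H929, library totals gave 5 higher with shRNA1, 18 higher and 7 lower with shRNA2, and 25 higher between the scramble groups. Of 18682 genes under library totals, 6095 were higher with shRNA1, 5051 higher and 3336 lower with shRNA2, and 1905 higher between the scramble groups. For H929 shRNA2, edgeR gave 10 higher, beside 3739 of 18492 genes, and no filter 10 lower, beside 3817 of 39615. The other scramble group gave 35 higher and 1 lower, beside 3197 and 3989 of 18213 genes. The mean of both gave 20 higher and 4 lower, beside 3514 and 4580 of 18213. Without a filter 1 was lower between the scramble groups, beside 1569 of 39615 genes. The shRNA1 line difference had 8 higher and 1 lower with TMM, beside 2818 and 1687 of 20539 genes, and 1 lower without a filter, beside 1869 of 43045. It had 11 and 5 with the replicate block, beside 3057 and 3343 of 20370 genes. With the other scramble group 24 were higher, beside 2520 of 20370, and with the mean 10 were higher, beside 2353 of 20370. The shRNA2 line difference had 3 higher and 2 lower with the block, beside 1928 and 1922 of 20370 genes, and 0 lower without a filter, beside 703 of 43045. With the other scramble group 14 were lower, beside 2296 of 20370, and with the mean 4 were lower, beside 1702 of 20370. In H929 the replicate block changed no other call of a named member.

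With each library left out in turn, members higher and lower numbered 1 to 1 and 29 to 43 for MM1.S shRNA1, 1 to 5 and 2 to 4 for shRNA2, 29 to 42 and 0 to 1 for shRNA2 over shRNA1, 2 to 2 and 53 to 61 for H929 shRNA1, 3 to 9 and 4 to 17 for H929 shRNA2, 34 to 44 and 2 to 3 for the H929 difference of effects, 25 to 55 and 0 to 2 between the scramble groups, 1 to 4 and 1 to 3 for the shRNA1 line difference, and 0 to 2 and 0 to 1 for the shRNA2 line difference. Calls over all genes in these fits are not given here, so the ranges cannot be weighed against them. With 2 libraries a group, small changes of single members were not detectable.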
